A study of Oryza sativa with 18 samples.

Results

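KSL4, CYP99A2 and CYP99A3 are 3 genes of the momilactone cluster on rice chromosome 4. They were found by symbol or synonym in the platform annotation, and each was read through the single-gene probe set with the highest mean log2 signal over all arrays. KSL4 is LOC4335094, CYP99A2 is LOC4335096 and CYP99A3 is LOC4335091 in the gene table, and each of them had 1 such probe set. They are 3 of 17905 genes with a single-gene probe set in the series. The study hybridised leaf sheath RNA to Affymetrix rice arrays, 1 colour and 1 sample per array, 18 arrays in all. The groups, of 3 biological replicates each, were the resistant line NIL-BPH9 at 0, 3 and 6 h after the brown planthopper was put on the plants, and the susceptible variety 9311 at the same times. NIL-BPH9 is by its name a near-isogenic line for BPH9, a gene for planthopper resistance. The labels do not say which other segments set it apart from 9311. All plants were at the four-leaf stage and grown in a controlled chamber. The 0 h plants carried no insects, and uninfested plants at 3 and 6 h were not analysed here, so that time of day and infestation cannot be told apart. The 3 h and 6 h responses of a line share its 0 h arrays.

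Momilactones are labdane-related diterpenoids of rice that act as phytoalexins, antimicrobial compounds made under attack, and as allelochemicals released from roots. Their synthesis branches from the common plastid precursor geranylgeranyl diphosphate. CPS4 turns this into syn-copalyl diphosphate, which KSL4, a class I diterpene synthase, converts to syn-pimaradiene. CYP99A2 and CYP99A3 are cytochrome P450 enzymes that oxidise the syn-pimaradiene skeleton, and OsMAS, momilactone A synthase, is a short-chain dehydrogenase of the last step. The genes of these enzymes lie side by side and form a biosynthetic gene cluster.

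Signals were on the log2 scale, and the median over rice probe sets was 5.18 to 5.52 on the 18 arrays. Arrays of a group correlated with r between 0.956 and 0.967 over probe sets, and arrays of different groups with r between 0.940 and 0.960. Of 57194 rice probe sets, 33094 lay at or above their array's median on at least 3 arrays and were tested with limma, whose p-values were adjusted over all of them by the Benjamini-Hochberg method. CYP99A2 and CYP99A3 reached the median on 18 of 18 arrays. KSL4 reached it on 4 of 18 arrays, which were the 3 NIL-BPH9 arrays at 3 h and replicate 3 of NIL-BPH9 at 6 h. It therefore entered the test only because infested NIL-BPH9 was high, so that its comparisons with that group, and counts that include it, are a description of these arrays. A fit with no filter, over all 57194 probe sets, is given beside its calls. Levels of the 3 genes cannot be set against each other, since each was read by its own probes. In whole tissue, fewer expressing cells and less RNA per cell cannot be told apart.

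CYP99A2 and CYP99A3 rose in NIL-BPH9 within 3 h of infestation, 1.98-fold and 2.20-fold, and in 9311 neither passed the test at any time. From 3 h on, both were higher in NIL-BPH9 than in 9311 on every array. KSL4 was near or above the array median in infested NIL-BPH9 and below it on every array of infested 9311. The plot of the signals by array shows these levels for all 18 samples.

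**Figure D1:**
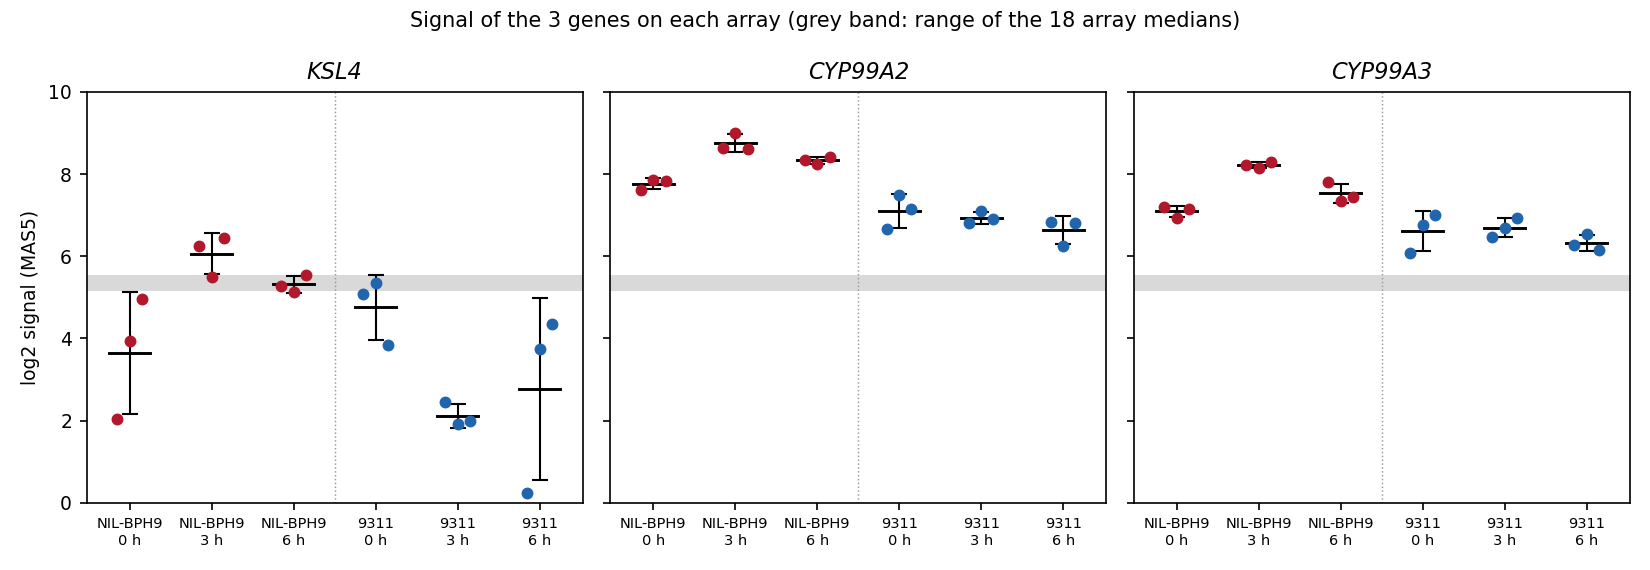
The log2 signal of KSL4, CYP99A2 and CYP99A3 (vertical axis) is plotted for each array (points), by line and time (horizontal axis), with the group mean and SD (bars, n = 3). The grey band is the range of the 18 array medians, 5.18 to 5.52. CYP99A2 and CYP99A3 stand highest in NIL-BPH9 at 3 h, and KSL4 lies below the band on most arrays other than those of infested NIL-BPH9.

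KSL4, the diterpene synthase that forms the momilactone skeleton, had log2 signals of 2.04, 3.94 and 4.96 in NIL-BPH9 at 0 h. At 3 h NIL-BPH9 gave 6.25, 5.5 and 6.44, and at 6 h it gave 5.28, 5.13 and 5.55. In 9311 the values were 5.08, 5.34 and 3.85 at 0 h, 2.45, 1.92 and 1.98 at 3 h, and 0.24, 3.74 and 4.34 at 6 h. In NIL-BPH9 the 3 h and 6 h arrays all lay above the 0 h arrays, whereas in 9311 the 3 h arrays all lay below the 0 h arrays. The group means, low to high, ran 9311 at 3 h (2.12 ± 0.29), 9311 at 6 h (2.77 ± 2.22), NIL-BPH9 at 0 h (3.65 ± 1.48), 9311 at 0 h (4.76 ± 0.80), NIL-BPH9 at 6 h (5.32 ± 0.21) and NIL-BPH9 at 3 h (6.06 ± 0.49; SD, n = 3 each). Each group in this order overlapped with the next.

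The spread of KSL4 was wide. Its pooled SD within groups was 1.16 on the log2 scale, above that of 93.7% of the tested probe sets, whose median was 0.216. The change of KSL4 at 3 h was 2.42 ± 0.96 in NIL-BPH9 (log2, SE) and did not pass the test (limma adjusted p = 0.109), although the arrays did not overlap. In 9311 the change at 3 h was -2.64 ± 0.96 and also missed the threshold (limma adjusted p = 0.0761). With values under the 10th percentile of their array raised to it, the 9311 change kept its size and passed (limma adjusted p = 0.0467). All 9311 values of KSL4 lay under the array median. With values raised to that median, a setting chosen after the data were seen, the 9311 change was -0.047 (limma adjusted p = 0.917).

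CYP99A2, one of the P450 genes of the cluster, had log2 signals of 7.62, 7.85 and 7.84 in NIL-BPH9 at 0 h, 8.64, 9.0 and 8.62 at 3 h, and 8.34, 8.24 and 8.42 at 6 h. In 9311 it had 6.66, 7.48 and 7.14 at 0 h, 6.80, 7.10 and 6.90 at 3 h, and 6.83, 6.24 and 6.82 at 6 h. No NIL-BPH9 array was as low as any 9311 array. Within NIL-BPH9 the 3 times did not overlap, in the order 0 h (7.77 ± 0.13), 6 h (8.33 ± 0.09) and 3 h (8.75 ± 0.21). The times of 9311 overlapped throughout, at 7.10 ± 0.41 at 0 h, 6.94 ± 0.15 at 3 h and 6.63 ± 0.34 at 6 h (SD, n = 3 each).

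At 3 h CYP99A2 rose in NIL-BPH9 by 0.98 ± 0.20 on the log2 scale, which is 1.98-fold (limma adjusted p = 0.0020; higher on 3 of 3 arrays than on every 0 h array). At 6 h it stood 0.56 ± 0.20 above 0 h and narrowly missed the threshold (limma adjusted p = 0.0561). That call depended on the processing: quantile normalization gave 0.66 and a limma adjusted p of 0.0225, and centring each array on its median gave 0.68 and 0.0197. In 9311 the change of CYP99A2 was -0.16 at 3 h (limma adjusted p = 0.703) and -0.47 at 6 h (limma adjusted p = 0.189). Without replicate 1 of 9311 at 0 h, its lowest array there, the 6 h change was -0.68 and passed (limma adjusted p = 0.0391).

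CYP99A3, the other P450 gene, had log2 signals of 7.19, 6.94 and 7.14 in NIL-BPH9 at 0 h, 8.22, 8.16 and 8.30 at 3 h, and 7.80, 7.34 and 7.45 at 6 h. In 9311 it had 6.08, 6.77 and 7.02 at 0 h, 6.47, 6.70 and 6.93 at 3 h, and 6.28, 6.53 and 6.15 at 6 h. The 3 h arrays of NIL-BPH9 stood clear of all others, at a mean of 8.23 ± 0.07 (SD, n = 3). Below them, the 6 h arrays (7.53 ± 0.24) and the 0 h arrays (7.09 ± 0.13) of NIL-BPH9 did not overlap. The groups of 9311 overlapped each other, at 6.62 ± 0.49 at 0 h, 6.70 ± 0.23 at 3 h and 6.32 ± 0.19 at 6 h. At 0 h the lines overlapped, because replicate 3 of 9311 was above replicate 2 of NIL-BPH9.

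CYP99A3 rose at 3 h in NIL-BPH9 by 1.14 ± 0.22 on the log2 scale, or 2.20-fold (limma adjusted p = 0.0013; 3 of 3 arrays). Of the 3 genes, 2 rose in NIL-BPH9 at 3 h, against 7.61% of all tested probe sets that rose and 14.1% that changed in either direction. Between 3 h and 6 h in the same line CYP99A3 fell by 0.70 on the log2 scale (limma adjusted p = 0.0373), 1 of the 3 genes, where 7.76% of the tested probe sets fell and 14.9% were called in either direction. The fall was close to the threshold, although the lowest 3 h array was 0.36 above the highest 6 h array. It missed the threshold without any one of NIL-BPH9 3 h replicates 1, 2 and 3 or 6 h replicates 2 and 3, with values between -0.73 and -0.60 and adjusted p between 0.0756 and 0.140, and it passed without 6 h replicate 1. At 6 h CYP99A3 was 0.44 ± 0.22 above 0 h in NIL-BPH9, which did not pass (limma adjusted p = 0.182).

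None of the 3 genes was called in 9311 in any comparison of times. There, 14.8% of the tested probe sets were called at 3 h against 0 h, 7.62% at 6 h against 0 h and 5.14% at 6 h against 3 h. At an unadjusted p under 0.05, KSL4 passed at 3 h and CYP99A2 at 6 h, both downward. CYP99A3 changed by 0.08 at 3 h in 9311, with a 95% interval of -0.38 to 0.54, so that a rise of the size seen in NIL-BPH9 lay outside the interval. For CYP99A2 that interval ran between -0.58 and 0.26. In NIL-BPH9 at 6 h against 0 h none of the 3 was called either, where 18.7% of the tested probe sets were.

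Before infestation, CYP99A2 was higher in NIL-BPH9, at 7.77 ± 0.13, than in 9311, at 7.10 ± 0.41 (SD, n = 3 each). The difference was 0.67 ± 0.20 on the log2 scale, 1.59-fold (limma adjusted p = 0.0283). It was the single gene of the 3 called at 0 h, when 6.92% of the tested probe sets were higher in NIL-BPH9 and 14.4% were called in either direction. The call was lost without 9311 0 h replicate 1 (0.46, limma adjusted p = 0.124), without NIL-BPH9 0 h replicate 2 (0.63, limma adjusted p = 0.0839), without NIL-BPH9 0 h replicate 3 (0.64, limma adjusted p = 0.0865), and in a fit of those 6 arrays alone (limma adjusted p = 0.126). For CYP99A3 the 0 h difference was 0.47 ± 0.22 (limma adjusted p = 0.181) and for KSL4 it was -1.11 ± 0.96 (limma adjusted p = 0.527). Without single arrays these ran between 0.20 and 0.67 for CYP99A3, lowest without 9311 0 h replicate 1, and between -1.77 (without NIL-BPH9 0 h replicate 3) and -0.31 (without its replicate 1) for KSL4, and neither passed.

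The mean differences between the lines were largest at 3 h, although the 3 h and 6 h differences were not tested against each other. CYP99A2 averaged 8.75 ± 0.21 in NIL-BPH9 and 6.94 ± 0.15 in 9311, a difference of 1.82 ± 0.20 or 3.52-fold. CYP99A3 averaged 8.23 ± 0.07 in NIL-BPH9 and 6.70 ± 0.23 in 9311, a difference of 1.53 ± 0.22 or 2.88-fold. Both passed limma with adjusted p of 3.6e-06 and 9.5e-05. At this time 4.25% of the tested probe sets were higher in NIL-BPH9 and 7.46% were called in either direction.

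KSL4 averaged 6.06 ± 0.49 in NIL-BPH9 at 3 h and 2.12 ± 0.29 in 9311, a log2 difference of 3.94 ± 0.96 (limma adjusted p = 0.0138, and 0.0149 in the fit with no filter). The lowest NIL-BPH9 array was 3.05 above the highest 9311 array. The 9311 values lay far under the array median, so that the size is uncertain. With every value under its array's median raised to it, a setting chosen after the data were seen, the difference was 0.73 (limma adjusted p = 0.0142). The call was lost without NIL-BPH9 3 h replicate 1 (3.85, limma adjusted p = 0.0587) and without its replicate 3 (3.76, limma adjusted p = 0.0645).

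At 6 h CYP99A2 remained 3.25-fold higher in NIL-BPH9, with a log2 difference of 1.70 ± 0.20 (limma adjusted p = 7.7e-06). CYP99A3 was 2.31-fold higher, with a log2 difference of 1.21 ± 0.22 (limma adjusted p = 0.00093). KSL4 differed by 2.55 ± 0.96 with no overlap of arrays, but missed the threshold (limma adjusted p = 0.101). Without replicate 3 of 9311 at 6 h, the highest of that group, it passed with 3.33 (limma adjusted p = 0.0490). Without any other single array it did not pass, with values down to 1.28 and adjusted p up to 0.403. With values raised to the array median, the KSL4 difference was 0.11 (limma adjusted p = 0.789). With 2 of the 3 genes called at 6 h, 5.75% of the tested probe sets were higher in NIL-BPH9 and 11.3% were called in either direction. The 3 h and 6 h differences of CYP99A2 and CYP99A3 between the lines passed under every alternative and without any single array.

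**Figure D2:**
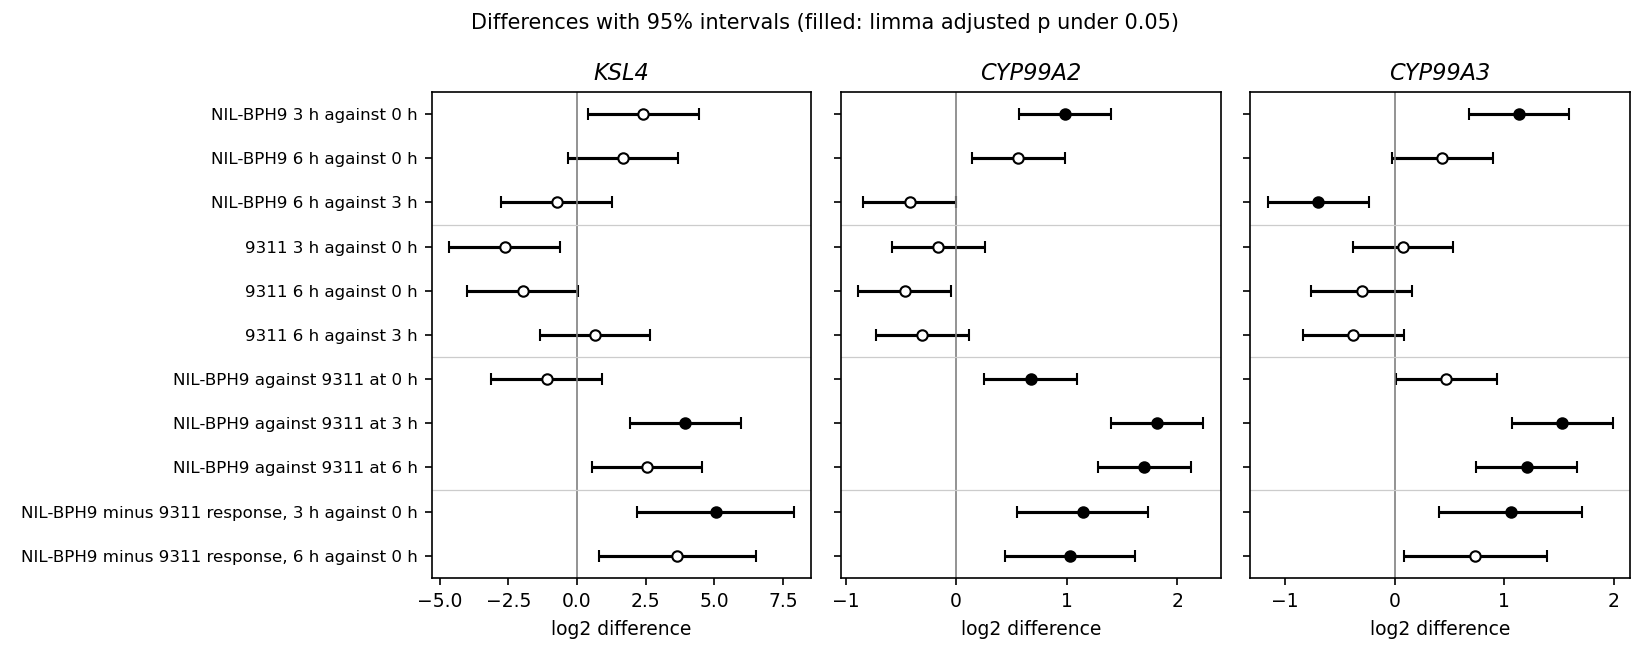
Log2 differences (horizontal axis) with 95% intervals from limma are drawn for KSL4, CYP99A2 and CYP99A3 in 11 comparisons (rows), each panel with its own scale. KSL4 entered the test only because infested NIL-BPH9 was high, so that its points are a description of these arrays. Filled points passed the threshold: both P450 genes at 3 h in NIL-BPH9, CYP99A3 at 6 h against 3 h there, CYP99A2 in the line difference at 0 h, all 3 genes in that at 3 h and both P450 genes in that at 6 h, all 3 genes in the difference of the 3 h responses, and CYP99A2 in that of the 6 h responses.

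The difference between the responses was tested directly, as the NIL-BPH9 change minus the 9311 change. At 3 h it was 1.14 ± 0.28 for CYP99A2 (limma adjusted p = 0.0122), 1.06 ± 0.31 for CYP99A3 (limma adjusted p = 0.0342) and 5.05 ± 1.36 for KSL4 (limma adjusted p = 0.0212, and 0.0250 in the fit with no filter), on the log2 scale. Both P450 genes were thus called, where 5.8% of the tested probe sets were more positive in NIL-BPH9 and 10.5% were called in either direction. Only CYP99A2 passed under every alternative and without any single array at 3 h. CYP99A3 lost its call without any one of 9 of the 12 arrays (9311 0 h replicates 2 and 3, 9311 3 h replicates 1 and 2, NIL-BPH9 0 h replicates 2 and 3, and NIL-BPH9 3 h replicates 1, 2 and 3), with values between 0.86 and 1.09 and adjusted p up to 0.0825.

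KSL4 lost the call of its 3 h response difference without 9311 0 h replicate 2 (4.76, limma adjusted p = 0.0535), NIL-BPH9 0 h replicate 1 (4.25, limma adjusted p = 0.0540), NIL-BPH9 3 h replicate 1 (4.96, limma adjusted p = 0.0547) or NIL-BPH9 3 h replicate 3 (4.87, limma adjusted p = 0.0565). With values raised to the array median it was 0.69 and did not pass (limma adjusted p = 0.0945).

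At 6 h the response difference of CYP99A2 was 1.03 ± 0.28 (limma adjusted p = 0.0338), 1 of the 3 genes called where 3.83% of the tested probe sets were more positive in NIL-BPH9 and 7.03% were called in either direction. It missed the threshold without any one of 8 of the 12 arrays (9311 0 h replicates 2 and 3, 9311 6 h replicate 2, NIL-BPH9 0 h replicates 1 and 3, and NIL-BPH9 6 h replicates 1, 2 and 3), with values between 0.83 and 1.08 and adjusted p up to 0.0919. CYP99A3 gave 0.74 ± 0.31 (limma adjusted p = 0.165), and passed without 9311 0 h replicate 1 (1.01, limma adjusted p = 0.0216). KSL4 gave 3.66 ± 1.36 (limma adjusted p = 0.113).

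CYP99A2 and CYP99A3 followed each other over the 18 arrays, with Pearson's r of 0.914. KSL4 followed them less closely, with r of 0.648 to CYP99A2 and 0.596 to CYP99A3. These values mostly reflect the group means: the deviations of single arrays from their group means correlated with r of 0.22 between the P450 genes, -0.13 between KSL4 and CYP99A2 and -0.16 between KSL4 and CYP99A3. The 18 arrays share lines and times, and no p is given. Whether the CYP99A2 and CYP99A3 probes also bind the other gene's RNA, or bind the lines' alleles unequally, was not tested.

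The cluster holds further pathway genes. In the RefSeq gene order, CPS4 comes first, then CYP99A3, OsMAS, KSL4 and CYP99A2, with an unnamed protein-coding gene and long non-coding RNA genes among them. CPS4, the class II cyclase that makes the substrate of KSL4, had log2 signals of 2.84, 4.68 and 4.85 in NIL-BPH9 at 0 h, 5.76, 5.58 and 5.27 at 3 h, and 5.20, 3.93 and 3.62 at 6 h. In 9311 it had 3.89, 2.54 and 3.42 at 0 h, 1.34, 1.45 and 3.28 at 3 h, and 2.0, 3.22 and 2.52 at 6 h. The 3 h arrays of NIL-BPH9 were the highest of CPS4 and stood above every 9311 array. CPS4 was too dim for the test. In a fit with no filter, over 57194 probe sets and chosen for CPS4 after the data were seen, its 3 h difference between the lines was 3.52 ± 0.80 (limma adjusted p = 0.0127), while its 3 h change in NIL-BPH9, 1.41 ± 0.80, did not pass (limma adjusted p = 0.408). The 9311 values at 3 h lay far under the array median, which leaves the size of the CPS4 line difference uncertain.

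OsMAS, the dehydrogenase gene, had log2 signals of 6.47, 5.58 and 6.26 in NIL-BPH9 at 0 h, 7.0, 7.33 and 6.61 at 3 h, and 6.96, 6.85 and 7.21 at 6 h. In 9311 it had 6.00, 6.24 and 6.61 at 0 h, 6.36, 5.80 and 3.41 at 3 h, and 6.47, 6.02 and 6.68 at 6 h. Replicate 3 of 9311 at 3 h was far below every other array. The line difference at 3 h was 1.79 ± 0.51 (limma adjusted p = 0.0349), but without that array it was 0.90 and did not pass (limma adjusted p = 0.137). It was also lost without NIL-BPH9 3 h replicate 1 (1.78, limma adjusted p = 0.0987), replicate 2 (1.61, limma adjusted p = 0.139) or replicate 3 (1.97, limma adjusted p = 0.0532). With all arrays kept, the call was lost with no filter (limma adjusted p = 0.0511) and with no intensity trend (limma adjusted p = 0.0811). A fit of the compared groups alone lost it too (limma adjusted p = 0.106). No other comparison of OsMAS passed; its 3 h change was 0.88 ± 0.51 in NIL-BPH9 (limma adjusted p = 0.296) and -1.09 ± 0.51 in 9311 (limma adjusted p = 0.182).

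The genes at the edges of the cluster were not called in NIL-BPH9 at 3 h. Of the pathway genes of the cluster, only CYP99A2 and CYP99A3 were called there. ARP9, an actin-related protein gene next to CPS4, changed by -0.55 ± 0.21 (limma adjusted p = 0.103) and was called in no comparison. LOC4335098, beyond CYP99A2, changed by 0.07 ± 0.04 in NIL-BPH9 (limma adjusted p = 0.313) and rose by 0.15 ± 0.04 in 9311 at 3 h (limma adjusted p = 0.0224). That rise was lost without 9311 0 h replicate 1 (0.13, limma adjusted p = 0.0773) or 9311 3 h replicate 1 (0.13, limma adjusted p = 0.0985). Median centring, no intensity trend and a fit of the compared groups alone lost the rise too (limma adjusted p = 0.122, 0.0526 and 0.160). Between 3 h and 6 h in 9311 LOC4335098 fell by 0.21 on the log2 scale (limma adjusted p = 0.00687). Median centring lost that call (-0.15, limma adjusted p = 0.438). LOC4335086, on the other side, changed by -0.52 ± 0.29 in NIL-BPH9 (limma adjusted p = 0.285) and fell by 1.64 on the log2 scale in 9311 at 3 h (limma adjusted p = 0.00058). Before infestation LOC4335086 was lower in NIL-BPH9 than in 9311 (-0.89, limma adjusted p = 0.0484). A fit of the compared groups alone lost that call (limma adjusted p = 0.0585).

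**Figure D3:**
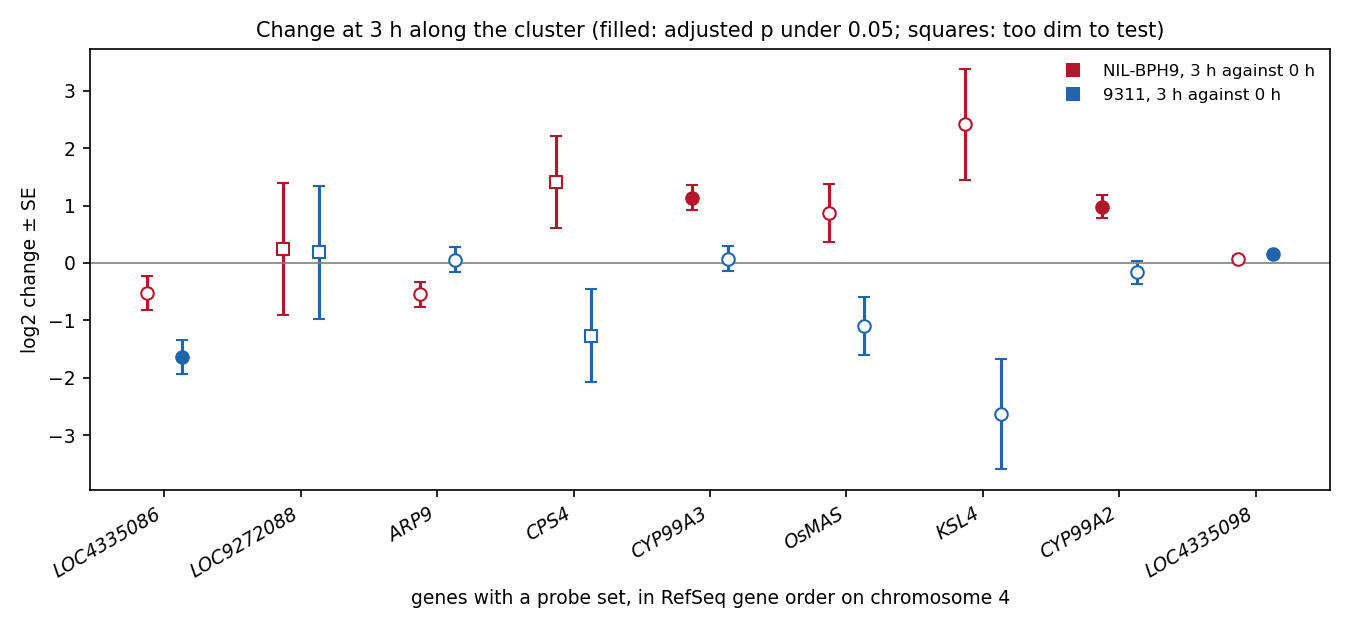
Log2 changes at 3 h against 0 h (vertical axis, ± SE) are shown for genes with a probe set, in RefSeq order on chromosome 4 (horizontal axis, not to scale), for NIL-BPH9 (red) and 9311 (blue). Circles were tested, with those past the threshold filled, and squares were too dim to test. In NIL-BPH9 the points of all 5 pathway genes, CPS4 to CYP99A2, lie above 0, with CYP99A3 and CYP99A2 filled. In 9311 the pathway genes have no filled point.

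Outside chromosome 4, CYP76M8, a P450 of the chromosome 2 cluster that also acts on momilactone intermediates, was higher in NIL-BPH9 at 3 h by 2.85 ± 0.65 (limma adjusted p = 0.00793). Its signals at 3 h were 7.55, 7.72 and 7.68 in NIL-BPH9, against 6.62, 4.02 and 3.77 in 9311. Replicates 2 and 3 of 9311 lay under the array median there, so that the size is uncertain. The call was lost without replicate 2 (2.46, limma adjusted p = 0.0524) or replicate 3 (2.33, limma adjusted p = 0.0577) of 9311 at 3 h. No other comparison of CYP76M8 passed. CYP701A8, another P450 with a part in momilactone synthesis, changed at 3 h by 0.63 ± 0.24 in NIL-BPH9 (limma adjusted p = 0.0977) and rose by 0.93 ± 0.24 in 9311 (limma adjusted p = 0.0125). The 9311 call was lost without 9311 0 h replicate 2 (0.83, limma adjusted p = 0.0588) or 9311 3 h replicate 1 (0.86, limma adjusted p = 0.0526). The difference between the responses of CYP701A8 was -0.30 ± 0.34 (limma adjusted p = 0.662).

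The chromosome 2 cluster is known for the phytocassanes, another family of rice diterpenoid phytoalexins. Of its 9 genes matched, 8 had a probe set and 7 were tested. At 3 h 1 of the 7 rose and 0 fell in NIL-BPH9, and 1 rose and 1 fell in 9311, where 7.61% and 7.22% of the tested probe sets rose and fell. The gene called in both lines was CYP71Z7, a P450. Its signals in NIL-BPH9 were 8.38, 8.5 and 8.88 at 0 h, 9.30, 9.51 and 9.61 at 3 h, and 8.91, 8.25 and 8.86 at 6 h. In 9311 they were 7.54, 7.93 and 7.84 at 0 h, 6.50, 6.94 and 7.08 at 3 h, and 6.86, 6.19 and 6.74 at 6 h.

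CYP71Z7 thus rose at 3 h in NIL-BPH9 by 0.89 ± 0.21 (limma adjusted p = 0.00686) and fell in 9311 by 0.93 (limma adjusted p = 0.00453). The lines did not overlap at any time. KSL7, the synthase of the phytocassane precursor, changed at 3 h by 0.10 ± 0.08 in NIL-BPH9 (limma adjusted p = 0.464) and rose by 0.50 ± 0.08 in 9311 (limma adjusted p = 0.00014). A second, dimmer probe set of KSL7 gave 0.16 ± 0.24 in 9311 and did not pass (limma adjusted p = 0.764). CPS2, the cyclase of that branch, was higher in NIL-BPH9 than in 9311 by 1.27 ± 0.25 at 3 h (limma adjusted p = 0.00271) and by 1.80 ± 0.25 at 6 h (limma adjusted p = 6.8e-05).

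**Figure D4:**
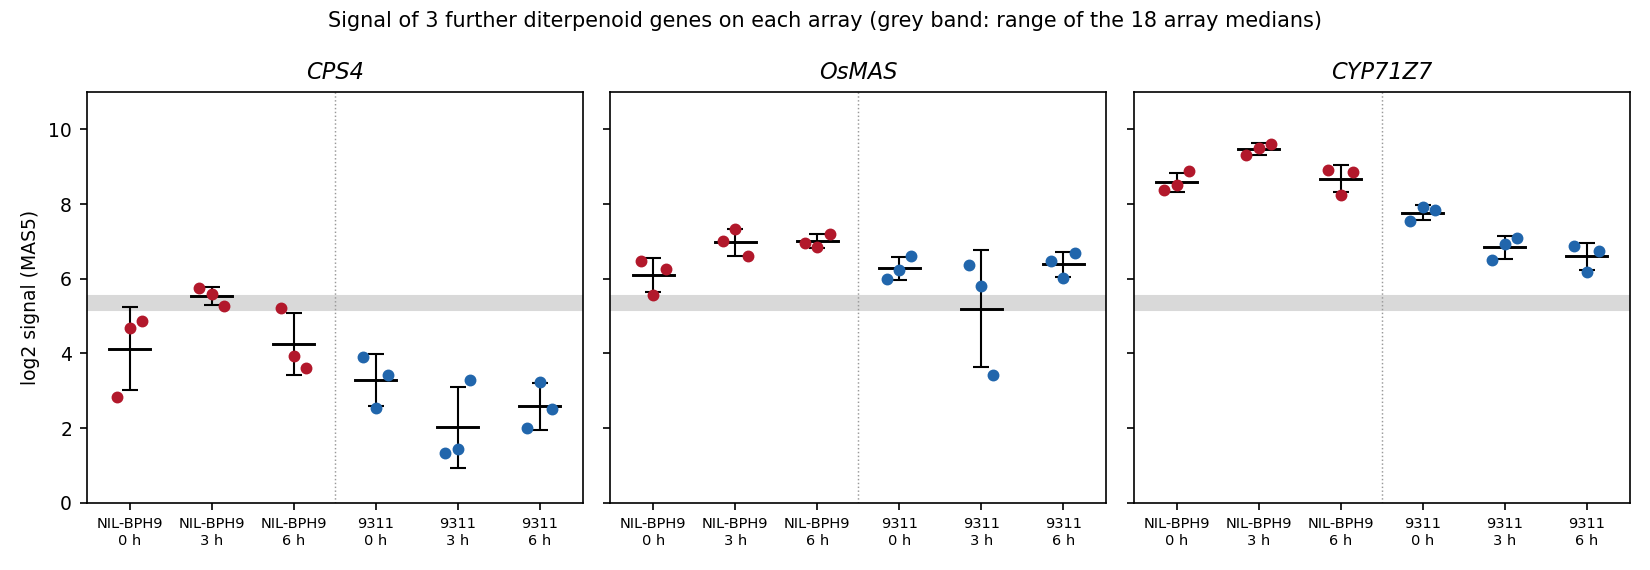
The log2 signals of CPS4, OsMAS and CYP71Z7 (vertical axis) are plotted for each array (points) by line and time, with mean and SD (bars, n = 3) and the range of the array medians (grey band). In CPS4 and CYP71Z7 all 3 h arrays of NIL-BPH9 lie above all 9311 arrays, and in OsMAS 1 array of 9311 at 3 h lies far below the others.

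Gibberellins, the diterpenoid growth hormones, draw on the same plastid precursor. Of 5 genes tested, 1 rose and 1 fell at 3 h in NIL-BPH9, where 7.61% and 6.47% of the tested probe sets rose and fell. OsKO2, the ent-kaurene oxidase, fell by 0.65 on the log2 scale (limma adjusted p = 5.1e-06; by 0.51 on its second probe set, limma adjusted p = 0.00440), and KAO, ent-kaurenoic acid oxidase, rose by 0.66 ± 0.18 (limma adjusted p = 0.0157). In 9311 CPS1, the cyclase of the gibberellin branch, rose by 0.75 ± 0.18 (limma adjusted p = 0.00564), KAO rose by 0.63 ± 0.18 (limma adjusted p = 0.0205), and OsKO2 changed by -0.05 ± 0.08 (limma adjusted p = 0.770). The KAO rises were lost without single arrays: in NIL-BPH9 without 0 h replicate 1 (0.60) or 3 (0.55), and in 9311 without 0 h replicate 2 (0.59) or 3 h replicate 3 (0.52).

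In the plastid pathway that supplies the precursor, 2 of 6 listed genes tested rose at 3 h in NIL-BPH9 and 3 rose in 9311, with none falling, where 7.61% of the tested probe sets rose in either line. The rises called among these 6 genes were at most 0.36 on the log2 scale. In NIL-BPH9 these were DXR, the reductoisomerase, by 0.28 ± 0.08 (limma adjusted p = 0.0232) and ISPG by 0.17 ± 0.05 (limma adjusted p = 0.0370). In 9311 they were CLA1, a deoxyxylulose phosphate synthase, by 0.36 ± 0.07 (limma adjusted p = 0.00092), ISPG by 0.21 ± 0.05 (limma adjusted p = 0.0108) and ISPH by 0.17 ± 0.05 (limma adjusted p = 0.0292). The calls of DXR, ISPG in NIL-BPH9 and ISPH were lost without single arrays, with values down to 0.21 for DXR, 0.12 for ISPG and 0.14 for ISPH.

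A gene of the same pathway outside the list, chosen after its values were seen, moved more. Its p-values are therefore a description of these arrays and not independent support. DXPS, which shares its RefSeq synonym for a deoxyxylulose phosphate synthase with CLA1 but is a separate gene, had log2 signals in NIL-BPH9 of 7.33, 6.97 and 6.72 at 0 h, 8.75, 8.45 and 8.62 at 3 h, and 8.21, 8.20 and 7.80 at 6 h. In 9311 DXPS had 7.05, 7.13 and 6.97 at 0 h, 7.27, 6.72 and 7.05 at 3 h, and 6.73, 6.99 and 6.78 at 6 h. All infested NIL-BPH9 arrays lay above all others. DXPS rose at 3 h in NIL-BPH9 by 1.6 ± 0.18 (limma adjusted p = 4.9e-06), and in 9311 the change was -0.033 ± 0.18 (limma adjusted p = 0.947). Over the 18 arrays it was the fifth named gene in likeness to CYP99A3, with r of 0.877.

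Of 11 listed regulators reported for rice diterpenoid phytoalexins, 6 were matched and 5 tested. DPF, WRKY45, WRKY53, WRKY10 and MKK4 had no match by symbol or synonym. At 3 h 5 of 5 tested rose in NIL-BPH9 and 3 of 5 in 9311, where 7.61% of all tested probe sets rose in either line. The lists were chosen with earlier results of these data known. WRKY76, a transcription factor whose overexpression in rice lowers the induction of diterpenoid genes, had signals of 10.24, 10.45 and 10.43 in NIL-BPH9 at 3 h, against 8.61, 8.16 and 8.42 at 0 h. In 9311 it had 8.06, 7.94 and 8.08 at 3 h, against 7.44, 7.56 and 7.62 at 0 h. It rose by 1.97 ± 0.11 in NIL-BPH9 (limma adjusted p = 1.9e-10) and by 0.48 ± 0.11 in 9311 (limma adjusted p = 0.00354), which was lost in a fit of those 6 arrays alone (limma adjusted p = 0.0616).

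WRKY62, its relative, rose by 1.41 ± 0.22 in NIL-BPH9 at 3 h (limma adjusted p = 0.00015) and changed by 0.12 ± 0.22 in 9311 (limma adjusted p = 0.812). The mitogen-activated protein kinase gene MPK3 rose by 0.39 ± 0.09 in NIL-BPH9 (limma adjusted p = 0.00753) and by 0.60 ± 0.09 in 9311 (limma adjusted p = 0.00017). OsbZIP37 and MPK6 rose in NIL-BPH9 by 0.28 ± 0.08 and 0.25 ± 0.07 (limma adjusted p = 0.0279 and 0.0167), and both calls were lost without single arrays, with values down to 0.22 for OsbZIP37 and 0.20 for MPK6. Median centring lost both calls too (limma adjusted p = 0.0652 and 0.0613), and a fit with no intensity trend lost that of OsbZIP37 (limma adjusted p = 0.0612). In 9311 OsbZIP37 rose by 0.49 ± 0.08 (limma adjusted p = 0.00035) and MPK6 changed by 0.18 ± 0.07 (limma adjusted p = 0.0777). OsbZIP79, the remaining matched regulator, was too dim to test.

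**Figure D5:**
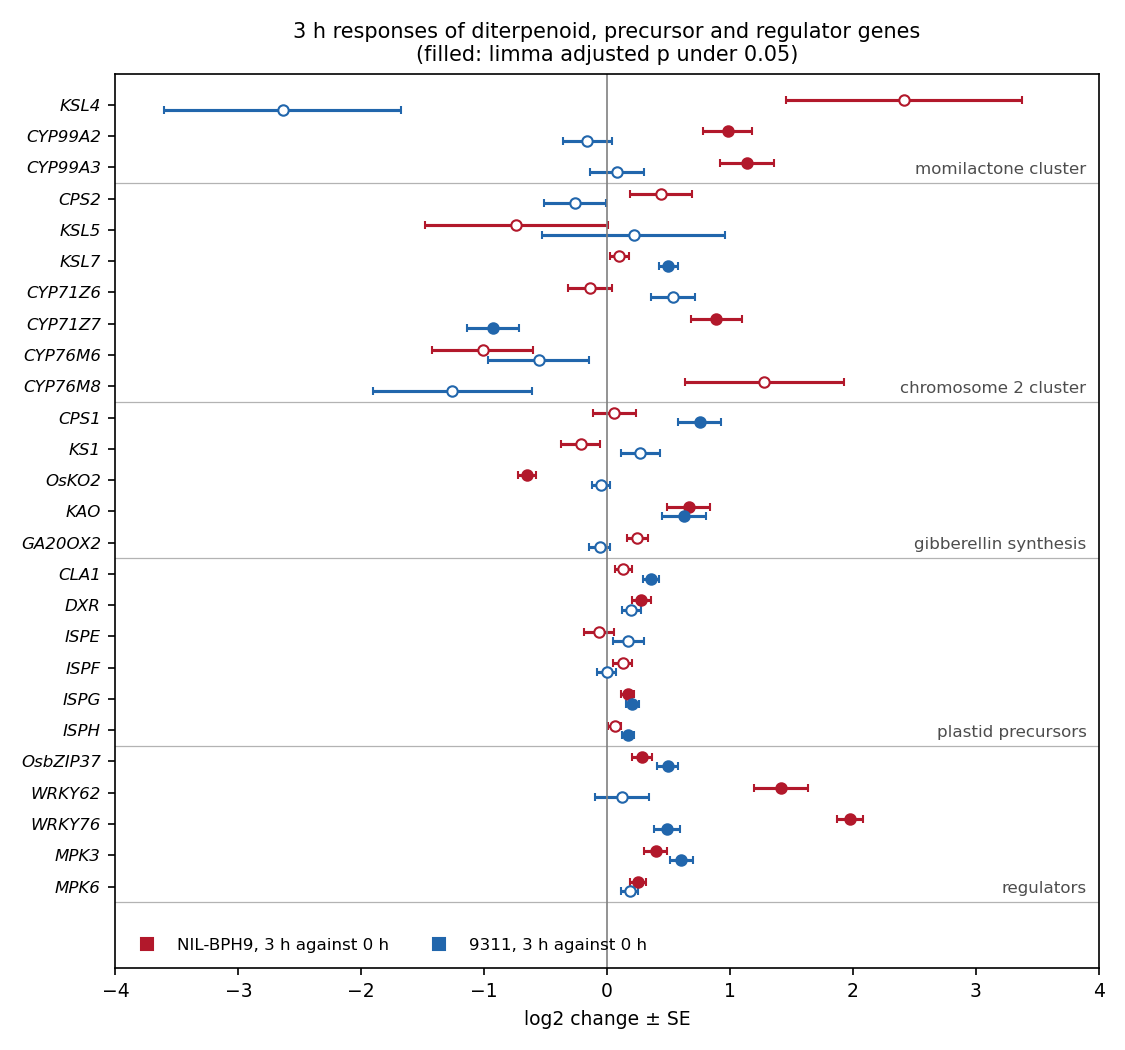
Log2 changes at 3 h against 0 h (horizontal axis, ± SE) are drawn for tested genes of 5 groups (rows) in NIL-BPH9 (red) and 9311 (blue), with filled points past the limma threshold. CYP71Z7 is the gene with filled points on opposite sides of 0. Among the regulators, the NIL-BPH9 points of WRKY76 and WRKY62 lie furthest right.

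The named genes whose signals were most like those of the 3 genes over the 18 arrays were found among 2254 named genes with a tested probe set, as a description with no test. CYP71Z7 was closest to the mean of the 3 centred profiles, with r of 0.886, followed by a gene named peroxidase (0.872), OsCASPL1U2 (0.860) and RH2 (0.851). The profiles were not scaled, so that KSL4, with the widest spread, weighed most in this mean. For the mean of CYP99A2 and CYP99A3 alone, CYP71Z7 (0.932) was followed by OsHAK1 (0.916), OsMUB3 (0.915) and OsAMT3;2 (0.907). CYP71Z7 also came first for CYP99A2 (0.943), before Adh2, an alcohol dehydrogenase (0.918), PBZ1, a pathogenesis-related protein gene (0.904), and OsPT8, a phosphate transporter (0.903). For CYP99A3 the order was OsHAK1, a potassium transporter (0.935), OsAMT3;2, an ammonium transporter (0.901), OsMUB3 (0.894) and OsHsf-15 (0.883). For KSL4 the highest r were lower: 0.748 for HSP81-1, 0.738 for OsCASPL1U2, 0.729 for peroxidase and 0.728 for OsAT7.

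Markers of other cells moved between the groups, and their part in the results above was not tested. The summed linear signal of 6 of 6 genes of dividing cells was 5954 to 6148 in NIL-BPH9 at 0 h, 5301 to 5420 at 3 h and 6508 to 7181 at 6 h. In 9311 it was 11845 to 13723 at 0 h, 4257 to 4622 at 3 h and 6877 to 7443 at 6 h. One of the 2 probe sets of OSH1, a meristem gene, was at 0 on an array of NIL-BPH9 at 3 h and at 6 h, and the brighter one had its lowest values there at 0.095 and 2.42. The 9311 plants at 0 h, the baseline of every 9311 response, stood well above all other groups in this sum.

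Markers of green leaf cells, 3 of 6 on the array, summed to 17184 to 17723 in NIL-BPH9 at 3 h and 13659 to 14849 in 9311, to 14710 to 15328 in NIL-BPH9 and 15889 to 17568 in 9311 at 6 h, and to 15752 to 16801 in NIL-BPH9 and 14512 to 18516 in 9311 at 0 h. With a brighter probe set of RBCS, which may also bind related genes, the sums were 44559 to 45391 in NIL-BPH9 and 40559 to 42641 in 9311 at 3 h, and the lines overlapped at 6 h. Root markers, 4 of 6 on the array, summed to 587 to 657 in NIL-BPH9 and 702 to 758 in 9311 at 3 h and to 554 to 588 in NIL-BPH9 and 510 to 653 in 9311 at 6 h, against 536 to 575 in NIL-BPH9 and 470 to 564 in 9311 at 0 h, and LSI2 was at 0 on an array of NIL-BPH9 at 0 h. Phloem markers, 4 of 4 on the array, summed to between 31506 and 39965 over all groups, and seed markers, 4 of 4, to between 2874 and 3871, with GLUA1 at 0 on an array of NIL-BPH9 at 3 h. The log2 ratio of 3' to 5' signal over 5 control transcript pairs, a measure of RNA quality, averaged 1.68 ± 0.03 in NIL-BPH9 and 1.76 ± 0.06 in 9311 at 3 h, 1.70 ± 0.03 in NIL-BPH9 and 1.77 ± 0.09 in 9311 at 6 h, and 1.69 ± 0.08 in NIL-BPH9 and 1.61 ± 0.04 in 9311 at 0 h (SD, n = 3 each).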

How the data were processed

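Leaf sheath RNA was labelled as biotin cRNA and hybridised to 18 1-colour Affymetrix arrays, per the labels' protocols. The deposited table gives 1 log2 signal per probe set and array, made by the authors with MAS5, per the submitters' processing notes. No label or note used here states its settings. Read back as linear signals, each array had a 2% trimmed mean of 500.076 to 500.088, and 24671 rice values stood at 0. Detection calls were not part of the tests.

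Of 57381 probe sets, 187 controls were left out. Of the rest, 22436 had 1 gene that the RefSeq gene table also holds, 95 had several genes and 34663 had neither. The RefSeq gene table, of assembly ASM3414082v1, was used for this match, for names and for gene order only. Probe sets at or above their array's median on at least 3 arrays were tested with limma 3.58.1 in R 4.3.3: 6 group means, contrasts, eBayes with an intensity trend, Benjamini-Hochberg adjustment over all 33094 probe sets, threshold 0.05. A gene was read by its brightest single-gene probe set, with sets of the x_at kind, which can bind related genes, used only for genes that lacked any further set. The fit was tested on simulated data. Number of arrays limits the precision.

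Named were the 3 genes, genes of the pathway lists and of the cluster's flanks, and the 4 named genes most like each profile. The genes and lists were chosen with earlier results of these data known. Alternatives were quantile normalization, median centring, no filter or one of 9 arrays, floors on low values, no trend, a replicate block, fits of the compared groups alone, and leaving out each array. Same-numbered arrays did not deviate together (45 pairs, correlations -0.107 to 0.0662, 0 over 0.1), so the numbers were not taken to pair them.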

Additional observations from a re-analysis of the deposited data

Results flagged for a closer look

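By limma's test of the difference itself, the NIL-BPH9 response differed from the 9311 response for CYP99A2 and CYP99A3. Genes of the chromosome 2 cluster and of gibberellin synthesis, regulators and DXPS were called as well. Of the rest of the chromosome 4 cluster, OsMAS was not called at 3 h (1.97) or 6 h (0.80). CPS4, too dim for the test, missed the threshold with no filter (2.68 at 3 h, limma adjusted p = 0.234). Values are log2, NIL-BPH9 change minus 9311 change, with SE. At 3 h CYP99A2 gave 1.14 ± 0.28 (limma adjusted p = 0.0122) and CYP99A3 1.06 ± 0.31 (limma adjusted p = 0.0342), whose call was lost without any one of 9 arrays. KSL4 gave 5.05 ± 1.36 (limma adjusted p = 0.0212), but it entered the test only through infested NIL-BPH9. With no filter its adjusted p was 0.0250 by limma, with values raised to the array median it gave 0.69 and missed the threshold (limma adjusted p = 0.0945), and it was lost without any one of 4 arrays. DXPS, chosen after its values were seen, gave 1.63 ± 0.26 at 3 h (limma adjusted p = 0.00037) and 1.28 ± 0.26 at 6 h (limma adjusted p = 0.00569). CYP71Z7 gave 1.82 ± 0.30 (limma adjusted p = 0.00046), with changes of opposite direction in the lines.

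The regulators WRKY76 and WRKY62 gave 1.49 ± 0.15 and 1.29 ± 0.31 at 3 h (limma adjusted p = 2.5e-06 and 0.00979). KSL7 gave -0.40 ± 0.11 (limma adjusted p = 0.0229), which was lost without 9311 3 h replicate 2 (-0.34), NIL-BPH9 3 h replicate 2 (-0.39) or NIL-BPH9 3 h replicate 3 (-0.37). The second probe set of KSL7 gave 0.013 ± 0.34 (limma adjusted p = 0.988). OsKO2 gave -0.60 ± 0.11 (limma adjusted p = 0.00091), and its second, dimmer probe set gave -0.42 ± 0.16 and did not pass (limma adjusted p = 0.111).

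At 6 h CYP99A2 gave 1.03 ± 0.28 (limma adjusted p = 0.0338), CYP71Z7 1.26 ± 0.30 (limma adjusted p = 0.0151) and WRKY76 1.01 ± 0.15 (limma adjusted p = 0.00043). OsKO2 gave -0.55 ± 0.11 (limma adjusted p = 0.00397), which was lost with median centring (-0.53, limma adjusted p = 0.0602). CPS2 gave 1.23 ± 0.36 (limma adjusted p = 0.0451) and KS1, the ent-kaurene synthase, gave -0.83 ± 0.23 (limma adjusted p = 0.0334). CPS2 missed the threshold without any one of 10 arrays and KS1 without any one of 9 arrays of the 12, with values between 0.95 and 1.33 for CPS2 and between -0.83 and -0.65 for KS1.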

How the results depend on the processing

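The rises of CYP99A2 and CYP99A3 in NIL-BPH9 at 3 h, their line differences at 3 h and 6 h, and the 3 h response difference of CYP99A2 kept direction and call under every alternative and without any single array. Over 33 results of the 3 genes, 453 of 513 values kept both, 42 lost the call, 11 gained it and 7 changed sign. The causes were not tested, except that fits of the compared groups use fewer arrays and no filter means more probe sets tested. KSL4 is limited by low signal and a wide spread.

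CYP99A2 at 6 h against 0 h in NIL-BPH9 gained its call with quantile normalization (0.66), median centring (0.68), the filter of 9 arrays and the compared groups alone (0.56 each), which also gave the call at 6 h against 3 h (-0.42) and ended its 0 h line difference (0.67). Its 6 h response difference was lost with no filter, no trend or the compared groups alone (1.03 each). CYP99A3 at 6 h against 3 h in NIL-BPH9 was lost with quantile normalization (-0.64), median centring (-0.61) and no filter (-0.70), and its 3 h response difference with median centring (1.04), no filter or the compared groups alone (1.06 each). KSL4 at 3 h in 9311 gained its call with the 10th percentile floor (-2.64). With values raised to the array median, chosen after the data were seen, KSL4 gained calls in NIL-BPH9 at 3 h against 0 h (0.64) and 6 h against 3 h (-0.67), lost its 3 h response difference (0.69), and changed sign at 6 h against 0 h in NIL-BPH9 (-0.032), 6 h against 3 h in 9311 (-0.052) and between lines at 0 h (0.043). With values raised in this way, KSL4 came to -0.047 at 3 h in 9311 and 0.11 between lines at 6 h, neither called. Its 6 h response difference came to 0.066 there, also not called. The filter of 9 arrays removed KSL4, and averaging probe sets changed nothing, as each gene had 1.

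Without single arrays, CYP99A2 ranged from -0.38 to 0.032 at 3 h in 9311 (0.032 without 9311 0 h replicate 2), -0.68 to -0.27 at 6 h in 9311, 0.46 to 0.87 between lines at 0 h and 0.83 to 1.24 in the 6 h response difference. CYP99A3 ranged from -0.20 to 0.27 at 3 h in 9311 (-0.20 without 9311 0 h replicate 1, -0.039 without 9311 3 h replicate 3), -0.83 to -0.60 at 6 h against 3 h in NIL-BPH9, 0.86 to 1.33 in the 3 h and 0.54 to 1.01 in the 6 h response difference. KSL4 ranged from -0.13 to 1.92 at 6 h against 3 h in 9311 (-0.13 without 9311 6 h replicate 3), 3.76 to 4.22 and 1.28 to 3.33 between lines at 3 and 6 h, and 4.25 to 5.71 in the 3 h response difference.

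With the replicate block no call of the 3 genes changed (CYP99A2 at 3 h in NIL-BPH9: 0.98). The block called 4253 probe sets in place of 4660 there, and 0 of 18 arrays correlated best with their own number.

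Of 95 called results of other genes, 47 kept their call throughout. Counts of called probe sets moved by over 1.5 times in these cases. Median centring gave 2983 in place of 4660 at 3 h in NIL-BPH9, 988 in place of 1700 at 6 h against 3 h in 9311, 3014, 1635 and 2265 in place of 4769, 2468 and 3736 between lines at 0, 3 and 6 h, and 1676 and 813 in place of 3482 and 2325 in the 3 h and 6 h response differences. The compared groups alone gave 2667 in place of 4906 at 3 h and 888 in place of 2521 at 6 h in 9311, 1848 between lines at 0 h and 1252 in the 6 h response difference, where no trend gave 1309. At 6 h in NIL-BPH9, 3539 and 4076 in place of 6188 were called without NIL-BPH9 0 h replicate 3 and 6 h replicate 2. The 6 h response difference had 4065 without 9311 0 h replicate 1, 1424 without 9311 6 h replicate 2, 1479 without NIL-BPH9 0 h replicate 3 and 1543 without NIL-BPH9 6 h replicate 2.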
